A study of Mus musculus with 2 samples.

Results

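The cells described here are 54 mouse wound cells with high counts of 4 interferon-induced genes, Ifit1, Ifit2, Ifit3 and Mx1, and are called Ifit/Mx1-high cells below. They were chosen by their own counts. A UMI (unique molecular identifier) tags 1 captured mRNA molecule. Of the cells that had 500 genes or more and less than 10% of their UMIs from mitochondrial genes, a cell was taken when its raw UMIs of the 4 genes summed to 10 or more. It was left out when its UMIs of Cd209a and Klrd1, markers of a dendritic cell population in these wounds, summed to 5 or more. The choice gave 40 of 1123 filtered cells in the non-diabetic library (3.56%, exact 95% interval 2.56% to 4.82%) and 14 of 1755 in the diabetic library (0.798%, 0.437% to 1.33%), together 54 of 2878.

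The study set wound monocytes and macrophages of non-diabetic mice against those of diabetic mice, taken 6 days after skin injury, in droplet-based single-cell RNA sequencing from the 3′ end of mRNA (10x Chromium). Each group was 1 library of cells pooled from 2 mice. The labels say that cells were pooled by strain but name no strain, and the diabetes model, its genotype, age and sex are not given in the sources used here. Diabetes, strain and library therefore cannot be told apart, and no difference between the libraries has a replicate check. All intervals are exact at 95% and cover counting error only.

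Type I interferons bind a receptor made of Ifnar1 and Ifnar2, whose kinases Jak1 and Tyk2 pass the signal to transcription factors. These bind interferon-stimulated response elements in promoters and switch on genes that restrict viruses, sense nucleic acids, present antigen and attract leukocytes. Ifit1, Ifit2 and Ifit3 encode proteins that act on foreign RNA and its translation, and Mx1 encodes a dynamin-like GTPase against viruses. In skin wounds, monocytes rich in Ly6C enter from the blood and mature into macrophages, which clear debris and support repair.

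Promoter sequences are shown for 2 of the 4 genes that chose the cells and for 4 genes that did not but were high in them, because all 6 hold a match to the core of the response element, GAAA and GAAA with any 2 bases between them. Each is the 250 bases before the RefSeq start (GRCm38.p6), read 5′ to 3′ on the strand of the gene. Both strands were searched. Capitals mark the matches, which read TTTC, any 2 bases, TTTC where they lie on the other strand. The windows are chr19:34640639-34640888 (+) for Ifit1, chr19:34583279-34583528 (+) for Ifit3, chr4:156200819-156201068 (-) for Isg15, chr1:173599273-173599522 (-) for Ifi213, chr12:26456453-26456702 (-) for Rsad2 and chr5:92348890-92349139 (-) for Cxcl10.
Ifit1: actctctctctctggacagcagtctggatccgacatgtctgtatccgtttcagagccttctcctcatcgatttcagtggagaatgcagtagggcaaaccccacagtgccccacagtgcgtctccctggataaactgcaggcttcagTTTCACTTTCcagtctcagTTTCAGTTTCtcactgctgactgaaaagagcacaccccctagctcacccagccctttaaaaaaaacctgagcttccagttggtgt
Ifit3: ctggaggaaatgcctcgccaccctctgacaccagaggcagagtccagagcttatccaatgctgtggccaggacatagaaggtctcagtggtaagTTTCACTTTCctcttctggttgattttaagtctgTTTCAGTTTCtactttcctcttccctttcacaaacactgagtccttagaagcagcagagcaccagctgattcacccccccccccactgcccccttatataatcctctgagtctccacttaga
Isg15: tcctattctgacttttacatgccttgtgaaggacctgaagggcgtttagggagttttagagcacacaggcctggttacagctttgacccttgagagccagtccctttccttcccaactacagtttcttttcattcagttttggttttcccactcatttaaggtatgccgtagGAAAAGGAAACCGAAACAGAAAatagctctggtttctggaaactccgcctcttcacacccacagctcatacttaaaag
Ifi213: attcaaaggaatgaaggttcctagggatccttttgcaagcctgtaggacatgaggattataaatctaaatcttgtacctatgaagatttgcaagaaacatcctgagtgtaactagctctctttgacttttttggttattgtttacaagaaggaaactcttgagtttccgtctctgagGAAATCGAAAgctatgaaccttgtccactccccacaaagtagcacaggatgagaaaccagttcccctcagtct
Rsad2: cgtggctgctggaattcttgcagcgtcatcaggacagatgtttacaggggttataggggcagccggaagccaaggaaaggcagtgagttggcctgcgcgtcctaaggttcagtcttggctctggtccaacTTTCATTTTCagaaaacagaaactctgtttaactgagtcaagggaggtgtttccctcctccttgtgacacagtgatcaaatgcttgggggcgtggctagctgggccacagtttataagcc
Cxcl10: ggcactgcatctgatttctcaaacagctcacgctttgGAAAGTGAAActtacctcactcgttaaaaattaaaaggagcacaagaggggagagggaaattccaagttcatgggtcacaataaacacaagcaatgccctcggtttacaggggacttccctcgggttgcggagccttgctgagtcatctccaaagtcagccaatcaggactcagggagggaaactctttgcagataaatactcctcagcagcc
The matches begin 104 and 85 bases before the start in Ifit1, 156 and 122 in Ifit3, 73 in Ifi213, 120 in Rsad2 and 213 in Cxcl10. Isg15 holds 3 that overlap one another and begin 78, 72 and 66 bases before the start.

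Over all genes of the RefSeq promoter table, 936 of 27025 (3.46%) had such a match in the same 250 bases. Among the interferon-induced genes fixed as 5 lists (antiviral effectors, enzymes of Isg15 conjugation, the Ifi200 family, the Schlafen family, and guanylate-binding and immunity-related GTPases; the 4 choosing genes left out), 35 of the 69 with a promoter in the table had a match (50.7%). The match was in 9 of 11 Ifi200 genes, 9 of 10 guanylate-binding and immunity-related GTPase genes, 13 of 35 antiviral effector genes, 3 of 7 Schlafen genes and 1 of 6 genes of Isg15 conjugation. Outside these lists it was in 2 of 10 Stat and interferon regulatory factor genes, 2 of 12 sensor genes, 1 of 3 interferon-linked chemokine genes, 3 of 14 MHC class I genes and 2 of 13 inflammatory genes. It was in 0 of 8 genes of the interferon receptors and their kinases, 0 of 7 classical monocyte genes, 0 of 10 macrophage genes and 0 of 6 MHC class II genes. Ifit2, Ccl12, Cmpk2 and Oasl1 had no match in the window, which says only that these letters are not there. Mx1 and Usp18 were not matched in the table.

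The non-diabetic library held 2026 barcodes with 17559986 UMIs and the diabetic library 2214 with 31730014, and 903 and 459 of them did not pass the cell filter. A doublet caller marked 2 and 4 cells, too few to count as a working call, and 0 Ifit/Mx1-high cells. The libraries shared 6 barcodes, 0 of them among Ifit/Mx1-high cells. Ifit/Mx1-high cells had a median of 17017 UMIs (3885 to 40116) in the non-diabetic and 16447 (12435 to 64091) in the diabetic library, against 13892 and 16314 in the other filtered cells. Their median mitochondrial share was 3.50% and 4.45%, against 3.51% and 3.81%.

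A single cell in each library stood apart from the rest. The non-diabetic one had 39763 UMIs, among them 147 of Ccr7, 211 of Ccl17 and 116 of Ccl22, genes of migrating mature dendritic cells, and 0 of Csf1r, the growth factor receptor gene of monocytes and macrophages. The diabetic one had 64091 UMIs, of 298066 in all diabetic Ifit/Mx1-high cells. Among them were 1872 of S100a9, 202 of G0s2 and 104 of Retnlg, which are neutrophil genes. It also had 31 of Csf1r and 119 over the macrophage genes C1qa, C1qb and C1qc, so it carried genes of both cell types. No other Ifit/Mx1-high cell had a UMI of Ccr7, Ccl17 or Ccl22, or more than 2 UMIs over S100a9, Retnlg and G0s2, the genes by which these 2 cells were set apart. S100a8, the partner gene of S100a9, was not among them: it had 20 or more UMIs in 3 other non-diabetic cells and 1 other diabetic cell, with up to 110 and 29. Values without these 2 cells, an alternative chosen after seeing the data, are given beside the counts of the gene lists they change, and for single genes where they turn the direction.

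The 4 choosing genes are described without a test. Ifit1 had 0, 4 and 25 UMIs in the lowest, median and highest non-diabetic cell and 0, 5 and 23 in the diabetic cells. Ifit2 had 0, 3 and 26, and 0, 5.5 and 37. Ifit3 had 0, 6 and 30, and 0, 7.5 and 40. Mx1 had 0, 5 and 46, and 3, 8.5 and 15. All 4 genes were found in 25 of 40 non-diabetic and 10 of 14 diabetic cells. A single gene reached 10 UMIs by itself in 20 and 10 cells, and the remaining cells passed only on the sum. Ifit1, Ifit2 and Ifit3 lie together on mm10 chromosome 19 (Ifit1 from 34640871 to 34650009, Ifit2 from 34550694 to 34576419, Ifit3 from 34583531 to 34588731), and Mx1 lies on chromosome 16 from 97447035 to 97462907. The Ifit3 transcript is 97.8% identical to that of its neighbour Ifit3b over 1700 bases and Mx1 has a stretch 95.3% identical to Mx2, so the split of reads between these pairs is uncertain.

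**Figure D1:**
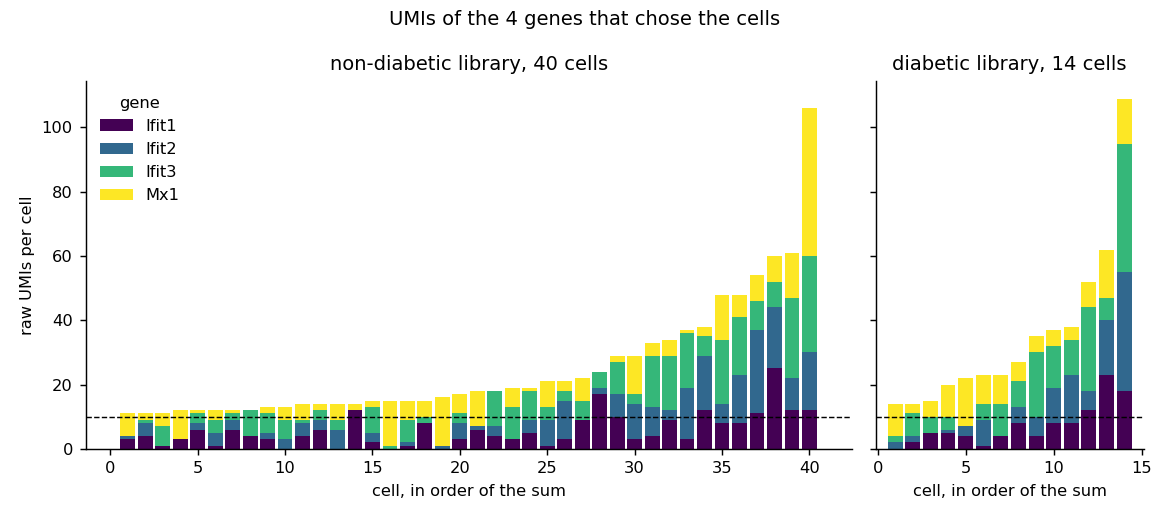
Raw UMIs per cell (vertical axis) of Ifit1, Ifit2, Ifit3 and Mx1, stacked, for each Ifit/Mx1-high cell in order of the sum, with the non-diabetic library (40 cells) and the diabetic library (14 cells) in separate panels. The dashed line is the threshold of 10, and the sums run from 11 to 106 and from 14 to 109.

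The sum of the 4 genes had a median of 17.5 UMIs in the non-diabetic and 25 in the diabetic cells. It was 0 in 69.6% of all filtered non-diabetic and 91.0% of all filtered diabetic cells. The threshold of 10 fell within a continuous range in the non-diabetic library. Just outside it, 10 cells with a sum of 8 or 9 had Isg15 at 967 CPM, Rsad2 at 302 CPM and Irf7 at 467 CPM (counts per 1e6, that is UMIs scaled to a common total of the summed cells). Just inside it, 3 cells with a sum of 10 or 11 had 1089, 153 and 420 CPM. In the diabetic library 3 cells had a sum of 8 or 9, with Isg15 at 837 CPM, and 0 had a sum of 10 or 11.

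The name of interferon-activated monocytes was checked against Ly6c2, which encodes the monocyte surface protein Ly6C, and against C1qa, C1qb and C1qc, complement genes of macrophages. A Ly6c2 UMI was found in 27 of 40 non-diabetic and 9 of 14 diabetic cells, and a C1q UMI in 23 of 40 and 11 of 14. Both were found in 13 and 7 cells and neither in 3 and 1. A Csf1r UMI was found in 39 of 40 and 14 of 14, in 5 of the non-diabetic cells as a single UMI. Ly6c2 had 0, 2 and 99 UMIs in the lowest, median and highest non-diabetic cell, and 0, 1.5 and 24 in the diabetic cells. The C1q sum had 0, 1 and 270, and 0, 95.5 and 236. Of the 23 non-diabetic and 11 diabetic cells with a C1q UMI, 13 and 7 also had Ly6c2, and the others had C1q alone. The name of monocytes therefore did not hold for all of these cells by the 2 marker sets. A C1q sum of 5 or more was found in 18 of 40 and 9 of 14 cells. Whether low C1q counts were background was not tested.

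**Figure D2:**
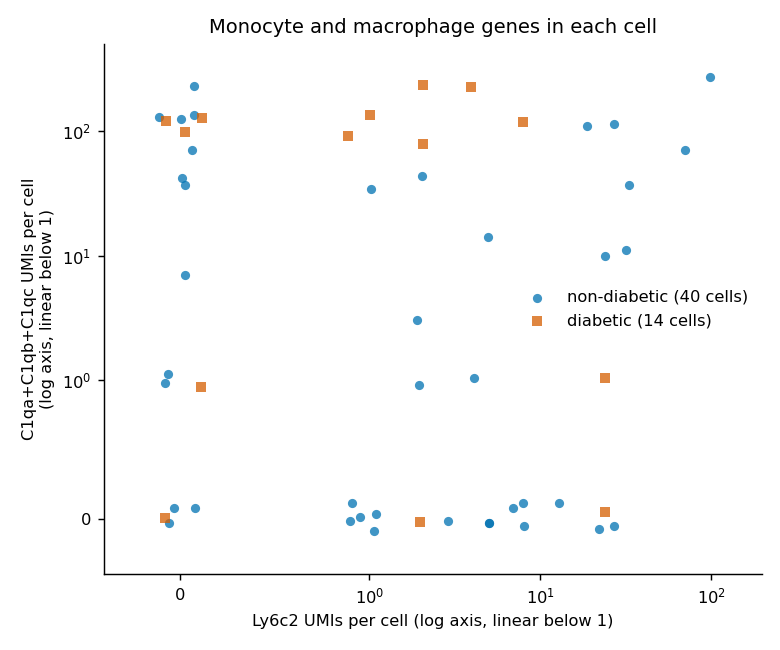
UMIs of Ly6c2 (horizontal axis) against summed UMIs of C1qa, C1qb and C1qc (vertical axis) in each Ifit/Mx1-high cell, both on log axes that are linear below 1, with points spread slightly so that equal values can be seen. Cells lie along both axes and between them, and 18 of 40 non-diabetic against 9 of 14 diabetic cells have 5 or more C1q UMIs.

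With each cell thinned to 5000 UMIs, Ly6c2 was detected in 48.7% of the non-diabetic Ifit/Mx1-high cells (interval 32.4% to 65.2%) and 42.9% of the diabetic ones (17.7% to 71.1%). It was found in 30.6% and 19.6% of the other filtered cells, and in 6.52% and 11.4% of the cells set apart by Cd209a and Klrd1. The latter are a dendritic cell population, given for comparison. Whether their UMIs of these genes are background or their own expression was not tested. The median depths of the Cd209a and Klrd1 cells were 20616.5 and 19750 UMIs. A C1q UMI was found in 46.2% and 64.3% of the Ifit/Mx1-high cells, 28.2% and 51.2% of the other cells and 8.70% and 11.4% of the Cd209a and Klrd1 cells. For Csf1r the shares were 82.1% and 100% of the Ifit/Mx1-high cells, 73.7% and 85.7% of the other cells and 52.2% and 48.6% of the Cd209a and Klrd1 cells. In the non-diabetic library 11 of 222 thinned cells with Ly6c2 but no C1q were Ifit/Mx1-high (4.95%), 8 of 80 with both (10.0%), 10 of 196 with C1q alone (5.10%) and 10 of 392 with neither (2.55%). In the diabetic library the shares were 3 of 206 (1.46%), 3 of 119 (2.52%), 6 of 730 (0.822%) and 2 of 571 (0.350%). Ifit/Mx1-high cells were thus found in all 4 classes of both libraries, at a lower share of each class in the diabetic library. With C1q alone the exact intervals were 2.47% to 9.18% and 0.302% to 1.78%. They cover counting error only, and with 1 library per group the difference was not tested in any class.

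Markers of other cell types were at 0 for some types and present for others. Of 10 T and NK cell markers and 5 mast cell markers, 0 had a UMI in either library. In the other cells these lists were at 0.543 and 5.43 CPM (non-diabetic) and 3.42 and 4.18 CPM (diabetic). In the Ifit/Mx1-high cells 3 UMIs would make 4.29 and 10.1 CPM, so these zeros do not set them apart from the other cells. In the diabetic cells 0 of 6 fibroblast and 0 of 7 keratinocyte markers had a UMI, against 18.2 and 6.17 CPM in the other diabetic cells. In the non-diabetic cells these lists held 3 and 5 UMIs, with fibroblast markers at 4.29 CPM against 249 CPM in the other cells. Of 8 plasmacytoid dendritic cell markers 2 and 3 had UMIs. They summed to 203 against 152 CPM in the other non-diabetic cells and 285 against 141 CPM in the diabetic library, mostly from Tcf4, which other cells express too, and the defining marker Siglech was at 0 in both. The B cell markers Cd79b and Ighm had UMIs, with a sum of 81.6 against 58.4 CPM and 144 against 46.1 CPM over the B cell list, and Cd79a and Ms4a1 were at 0. Dendritic cell markers summed to 664 against 769 CPM and 416 against 281 CPM, with Flt3, Xcr1 and Clec9a at 0 in both (Flt3 at 20.3 and 4.88 CPM in the other cells). Of the 464 non-diabetic dendritic cell marker UMIs 196 came from 1 cell, and 66 of the 124 diabetic ones from 1 cell. The part of these markers in the results was not tested. Neutrophil markers had a UMI in 22 of 40 and 13 of 14 cells and summed to 339 CPM (non-diabetic) and 11487 CPM (diabetic), against 234 and 4521 CPM in the other cells, with Ly6g at 0. Of the 3424 diabetic neutrophil marker UMIs, 3354 came from the single cell described above, and 115 of the 237 non-diabetic ones from 1 cell.

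In the other filtered cells of each library the interferon-induced genes were lower. These genes come from the same cells and the same contrast that the choice of cells used, so their values are a description and carry no test. A gene counted as measured with 20 or more UMIs over both sets, and as higher or lower past 2-fold. Of all measured genes, 7.28% were at least 2-fold higher and 10.5% at least 2-fold lower in the non-diabetic Ifit/Mx1-high cells, with a median log2 ratio of -0.01. In the diabetic library the shares were 13.9% and 11.7%, with a median of 0.05. Of the interferon-induced genes in the 5 lists, 65 of 74 measured were at least 2-fold higher and 1 lower in the non-diabetic cells (median log2 ratio 2.12), and 65 of 76 higher and 0 lower in the diabetic cells (median 2.93). Without the 2 cells that stood apart the counts were 65 and 67 higher and the medians 2.19 and 3.16. Of all measured genes, 7.23% were then higher and 11.2% lower in the non-diabetic library, and 17.9% and 12.3% in the diabetic library.

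The genes that receive the interferon signal were at about the level of the other cells. Of 8 measured receptor and receptor kinase genes, 0 in the non-diabetic and 1 in the diabetic library was at least 2-fold higher, and 0 were lower, with medians of 0.04 and -0.02. Ifnar1 was at 70.1 CPM against 78.1 CPM in the other non-diabetic cells (log2 ratio -0.14, interval -0.60 to 0.26) and at 154 against 119 CPM in the diabetic library (0.40, -0.07 to 0.80). Ifnar2 had log2 ratios of -0.12 (-0.40 to 0.15) and 0.00 (-0.42 to 0.37). Tyk2 was the gene past 2-fold, at 33.5 against 16.0 CPM in the diabetic library (1.13), where its interval of -0.0037 to 1.96 included 0.

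Downstream of the receptor, 4 of 11 Stat and interferon regulatory factor genes were at least 2-fold higher in the non-diabetic cells (median 0.72), and 6 higher and 1 lower in the diabetic cells (median 1.01; 0 lower without the cell that stood apart). Irf7, a master factor of the interferon response, had 1, 11 and 31 UMIs in the lowest, median and highest non-diabetic cell and 2, 8.5 and 16 in the diabetic cells, so no Ifit/Mx1-high cell lacked it. Its level was 703 CPM against 143 CPM in the other non-diabetic cells (log2 ratio 2.29, interval 2.15 to 2.44) and 399 against 33.5 CPM in the diabetic library (3.58, 3.29 to 3.85). Stat2 was at 212 against 42.4 CPM (2.32) and 218 against 18.1 CPM (3.60). Irf9 stood at 0.72 (0.32 to 1.08) and 1.43 (0.73 to 1.99), and Stat3, which other cytokines use more, at 0.42 and 0.38.

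Of 18 sensors of nucleic acid and their signalling genes, 7 were at least 2-fold higher in the non-diabetic cells (median 0.71) and 10 in the diabetic cells (median 1.07), and 0 were lower. Ddx58, which encodes the RNA sensor RIG-I, was at 248 against 44.5 CPM (2.48) and 178 against 17.6 CPM (3.35). Ifih1, which encodes MDA5, was at 225 against 82.0 CPM (1.46) and 208 against 24.1 CPM (3.12). Zbp1, a sensor of Z-form nucleic acid, had log2 ratios of 2.13 and 2.37. Tlr7, an endosomal RNA receptor gene, stood at 1.44 in the non-diabetic and 0.09 in the diabetic library, and the kinase gene Tbk1 at -0.04 and 0.09.

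Antiviral effector genes were the longest of the 5 lists. Of 37 measured, 29 were at least 2-fold higher and 1 lower in the non-diabetic cells (median 1.85), and 30 higher and 0 lower in the diabetic cells (median 2.38; 31 without the cell that stood apart). Rsad2, which encodes viperin, had 0, 4.5 and 42 UMIs in the lowest, median and highest non-diabetic cell and 0, 5.5 and 39 in the diabetic cells. The spread between cells was wide, and the pooled level was 557 against 59.6 CPM in the other non-diabetic cells (3.22, interval 3.05 to 3.40) and 483 against 8.63 CPM in the diabetic library (5.81, 5.50 to 6.11). Its neighbour on chromosome 12, the nucleotide kinase gene Cmpk2, stood at 3.96 and 5.83. Oasl1, of the oligoadenylate synthetase family, stood at 318 against 44.9 CPM (2.83) and 131 against 2.52 CPM (5.71). Ifit3b and Ifit1bl1, relatives of the choosing genes, had log2 ratios of 6.09 and 5.88 in the non-diabetic and 7.27 and 6.56 in the diabetic library, where Ifit3b cannot be told firmly from Ifit3. Ifitm1 was the gene that was lower in the non-diabetic cells, at 557 against 1199 CPM (-1.11), and it stood at -0.17 in the diabetic library. Its neighbours in the family, Ifitm2 and Ifitm3, stood at 0.19 and 0.77, and 0.25 and 0.85.

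Isg15 encodes a ubiquitin-like protein that is attached to other proteins. It had 3, 28.5 and 126 UMIs in the lowest, median and highest non-diabetic cell and 6, 14.5 and 54 in the diabetic cells, so every Ifit/Mx1-high cell had some. Its level was 1734 CPM against 235 CPM in the other non-diabetic cells (log2 ratio 2.89, interval 2.79 to 2.98) and 829 against 39.1 CPM in the diabetic library (4.41, 4.20 to 4.61). At 5000 UMIs per cell it was found in 100% against 41.9% of cells, and in 92.9% against 12.3%. The enzymes that attach Isg15 or remove it were also high: 8 of 8 genes of this list, Isg15 included, were at least 2-fold higher in the non-diabetic and 7 of 8 in the diabetic cells, with medians of 1.91 and 2.997. Usp18, which removes Isg15 and dampens signalling from the receptor, was at 187 against 21.4 CPM (3.14) and 178 against 3.78 CPM (5.56). The ligase gene Herc6 stood at 2.83 and 3.98, the activating enzyme gene Uba7 at 1.89 and 1.78, and the conjugating enzyme gene Ube2l6 at 1.93 and 1.40. The exception was Usp25, a less specific protease gene, at 1.14 and 0.62.

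**Figure D3:**
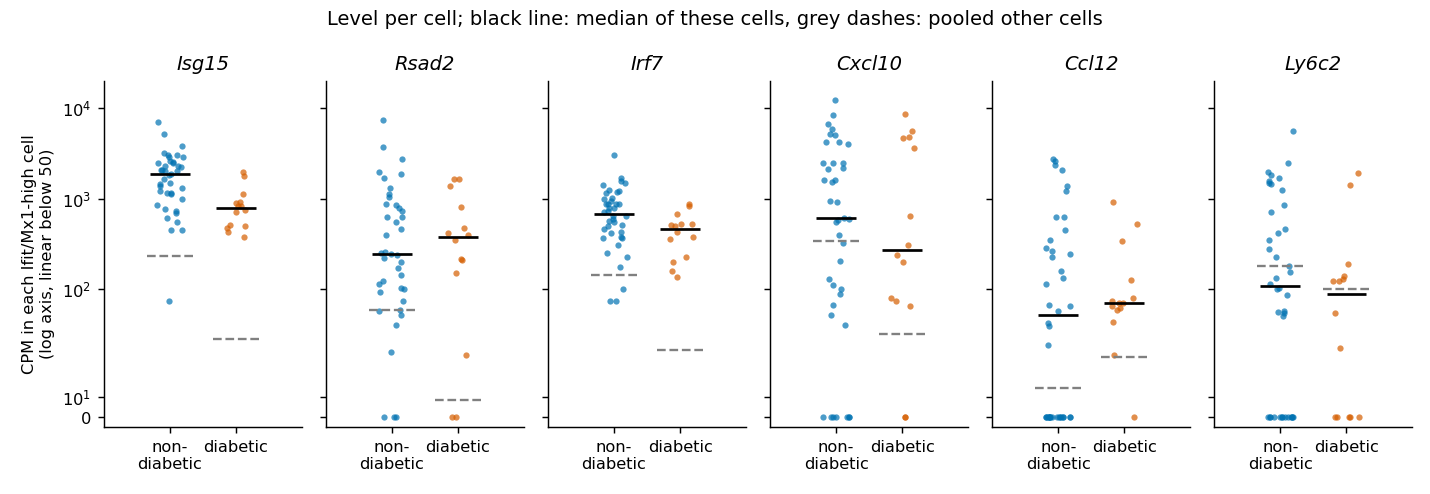
CPM per cell of Isg15, Rsad2, Irf7, Cxcl10, Ccl12 and Ly6c2 in each Ifit/Mx1-high cell (points, spread sideways, on a log axis that is linear below 50), with the median as a black line and the pooled level of the other filtered cells of the same library as grey dashes. The cells of the 2 libraries overlap for all 6 genes, and the grey dashes of Isg15 (235 and 39.1 CPM) lie below the medians of 1862 and 794 CPM.

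The Ifi200 family, whose proteins bind DNA in the nucleus or cytosol, was higher throughout: 11 of 11 measured genes were at least 2-fold higher in both libraries, with medians of 2.35 and 3.63. Ifi213 had a UMI in 33 of 40 non-diabetic and 11 of 14 diabetic cells. It was at 230 against 26.1 CPM in the other non-diabetic cells (3.15, interval 2.87 to 3.41) and at 198 against 5.41 CPM in the diabetic library (5.20, 4.74 to 5.63). Ifi206 stood at 3.38 and 5.87, Ifi208 at 4.72 and 6.03, Ifi205 at 2.26 and 3.53 and Ifi207 at 1.21 and 2.15. Several of these genes are near-identical copies: Ifi213 is 96.4% identical to Ifi208 over 2749 bases and 97.1% to Ifi206 over 448, so single values are uncertain while the direction was shared by all 11. The genes lie on chromosome 1, Ifi213 from 173566283 to 173599274.

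In the Schlafen family, regulators of growth and translation, 6 of 7 measured genes were at least 2-fold higher in the non-diabetic and 5 of 7 in the diabetic cells (6 without the cell that stood apart), with medians of 2.08 and 3.10. Slfn5 was at 994 against 198 CPM (2.33) and 859 against 73.5 CPM (3.55), and Slfn2 stood at 0.31 and 0.81. Among guanylate-binding proteins and immunity-related GTPases, which attack the membranes around intracellular microbes, 11 of 11 measured genes were at least 2-fold higher in the non-diabetic and 12 of 13 in the diabetic cells, with medians of 2.41 and 2.93. Ifi47 was at 250 against 26.1 CPM (3.26) and 275 against 18.3 CPM (3.92), Gbp2 stood at 2.86 and 2.84 and Gbp5 at 2.41 and 4.60.

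**Figure D4:**
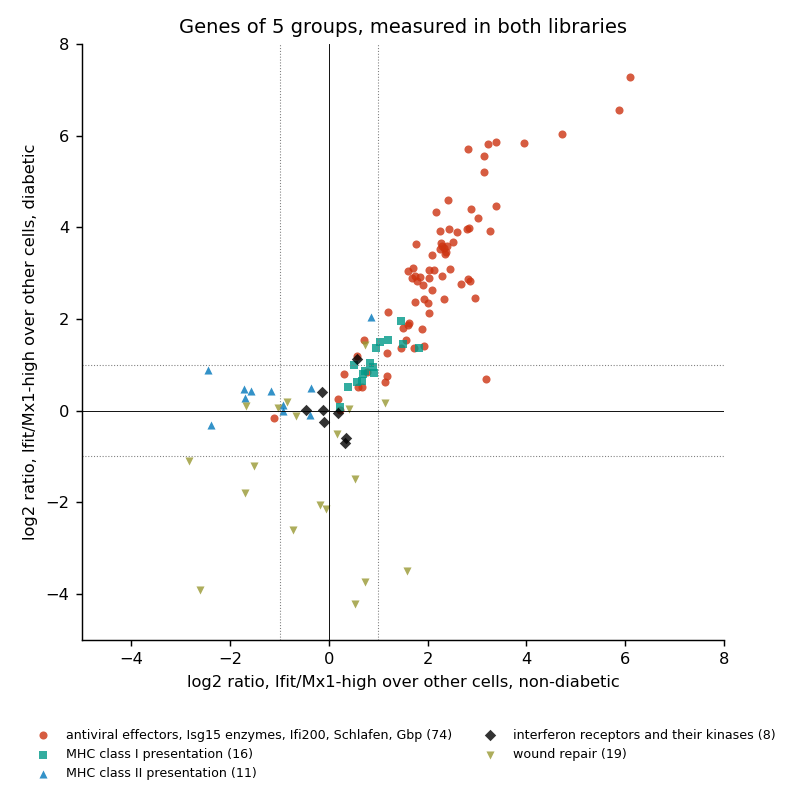
Log2 ratio of Ifit/Mx1-high over other filtered cells in the non-diabetic library (horizontal axis) and the diabetic library (vertical axis) for genes of 5 groups measured in both, with dotted lines at 2-fold. Interferon-induced genes lie mostly in the upper right, receptor and kinase genes near the origin, and MHC class II genes left of 0 apart from Cd40 (0.85 in the non-diabetic and 2.05 in the diabetic library).

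Chemokine genes varied from cell to cell. Cxcl10, which attracts T cells through Cxcr3, had 0, 13.5 and 153 UMIs in the lowest, median and highest non-diabetic cell and 0, 11 and 137 in the diabetic cells. It had 10 or more UMIs in 23 of 40 and 7 of 14 cells and 0 in 7 and 2. The pooled level was 1505 against 345 CPM in the other non-diabetic cells (log2 ratio 2.13, interval 2.03 to 2.22) and 1738 against 41.3 CPM in the diabetic library (5.40, 5.25 to 5.54). Ccl12, a monocyte attractant, had 0, 1 and 47 UMIs in the non-diabetic and 0, 1 and 17 in the diabetic cells, with 10 or more in 6 and 2 cells. Its pooled level, to which a few cells gave much, was 325 against 14.4 CPM (4.50) and 161 against 29.8 CPM (2.45). Ccl2 stood at 0.70 and 1.38 and Ccl7 at 1.34 and -0.01. Ccl5 stood at -1.23 in the non-diabetic library, from 3 cells, and at 2.59 in the diabetic library, where 94.4% of its UMIs came from 1 cell.

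Antigen presentation by MHC class I and class II differed. Of 16 class I genes, 5 were at least 2-fold higher in the non-diabetic and 7 in the diabetic cells (6 and 9 without the cells that stood apart), and 0 were lower, with medians of 0.86 and 0.97. The peptide transporter gene Tap1 was at 243 against 88.9 CPM (1.46) and 144 against 37.6 CPM (1.95). Nlrc5, the transactivator gene of class I, stood at 1.83 and 1.36 and B2m, the class I light chain gene, at 0.58 and 0.62. Of 11 class II genes, 6 were at least 2-fold lower in the non-diabetic cells and 0 higher (median -1.18; 7 lower and a median of -1.34 without the cell with dendritic genes), while in the diabetic cells 0 were lower and Cd40 alone was higher (median 0.42). H2-Aa was at 751 against 2236 CPM in the non-diabetic library (-1.57, interval -1.70 to -1.45) and at 3019 against 2254 CPM in the diabetic library (0.42, 0.33 to 0.52). Ciita, the class II transactivator gene, stood at -2.45 (-4.02 to -1.44) and 0.88 (0.08 to 1.51). The other cells include the dendritic cells set apart by Cd209a and Klrd1, 94 of 1083 in the non-diabetic and 37 of 1741 in the diabetic library, and their part in this was not tested.

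Among 11 classical monocyte genes, 3 were at least 2-fold higher and 0 lower in the non-diabetic cells (median 0.34), and 4 higher and 2 lower in the diabetic cells (median 0.04; 3 higher without the cell that stood apart). Ly6c2 was at 605 against 180 CPM (1.75, interval 1.60 to 1.90) and 228 against 101 CPM (1.18, 0.80 to 1.52). The median Ifit/Mx1-high cell had 109 and 89.6 CPM, below the pooled 605 and 228 CPM of these cells, so cells with many Ly6c2 UMIs carried much of the pooled value. Its transcript is 97.6% identical to that of Ly6c1 over 822 bases, so the split between them is uncertain. Plac8 stood at 1.46 and 1.79, Ms4a4c at 1.96 and 2.36, and the chemokine receptor gene Ccr2, through which monocytes leave the marrow, at 0.34 and 0.56. Of 16 macrophage genes, 6 were at least 2-fold higher and 0 lower in the non-diabetic cells (median 0.80; 7 higher without the cell that stood apart), and 1 higher and 2 lower in the diabetic cells (median 0.31). Of all measured genes in the diabetic library, 13.9% were higher and 11.7% lower. C1qa stood at 1.51 and 0.36 and the mannose receptor gene Mrc1 at 1.13 and 0.16. Cd163, a haemoglobin scavenger receptor gene of resident-type macrophages, was at 16.8 against 245 CPM in the diabetic library (-3.73, -5.49 to -2.65) and stood at 0.73 (-0.50 to 1.63) in the non-diabetic one.

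Of 5 Fc receptor genes, which bind antibodies, 2 were at least 2-fold higher in both libraries (list medians 0.22 and 0.28): Fcgr1, the high-affinity receptor gene, at 1073 against 367 CPM (1.55) and 530 against 175 CPM (1.60), and Fcgr4 at 1.82 and 1.13. Of 8 genes of the Ms4a family of membrane proteins, 7 were at least 2-fold higher in the non-diabetic and 4 in the diabetic cells (medians 1.20 and 0.80). Of 15 cell death and stress genes, 3 in the non-diabetic and 2 in the diabetic cells were at least 2-fold higher and 0 lower. Of all measured genes 7.28% and 13.9% were higher. Without the cell that stood apart 2 of the 15 were lower in the diabetic cells too (median 0.22 with and -0.19 without it), where 12.3% of all genes were. The diabetic counts were thus near the share over all genes. Mlkl, the pore-forming gene of necroptosis, stood at 1.70 and 2.05. Of the inflammatory list, Tnfsf10, which encodes the death ligand TRAIL, had 20 UMIs in 15 of 40 non-diabetic and 7 UMIs in 5 of 14 diabetic cells. It was at 28.6 against 0.815 CPM (5.11, interval 4.03 to 6.30) and 23.5 against 0.531 CPM (5.52, 3.94 to 6.83). Il15, a cytokine gene for NK and memory T cells, stood at 2.37 and 2.58.

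The inflammatory list as a whole, with Tnfsf10 and Il15 in it, was mixed: of 18 measured genes in the non-diabetic library 4 were at least 2-fold higher and 6 lower (median -0.46), and of 19 in the diabetic library 5 were higher and 6 lower (median 0.27). Il1a was at 44.4 against 258 CPM (-2.51, interval -3.10 to -2.03) and 30.2 against 190 CPM (-2.57, -3.78 to -1.73). Of other chemokine genes, 2 of 13 were at least 2-fold higher and 2 lower in the non-diabetic and 1 of 12 higher and 5 lower in the diabetic cells (0 and 5, and 2 and 7, without the cells that stood apart). Of all measured genes, 7.28% were higher and 10.5% lower in the non-diabetic cells, and 13.9% and 11.7% in the diabetic cells. The neutrophil attractant gene Cxcl1 stood at -2.10 and -3.50. Cxcl3, of the same family, was at 278 against 3718 CPM in the non-diabetic library (-3.74) and 644 against 3619 CPM in the diabetic one (-2.49). There 94.8% of its UMIs came from 1 cell, and without the cell with neutrophil genes the ratio was -6.33. Il1b stood at -1.12 in the non-diabetic and 0.43 in the diabetic library, where it turned to -0.23 without that cell, which held 50.3% of its UMIs. Without that cell the diabetic inflammatory list had 3 genes higher, 6 lower and a median of -0.23.

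Genes of wound repair and of alternative macrophage activation were lower in the diabetic cells, with 1 of 19 at least 2-fold higher and 11 lower (median -1.21), and mixed in the non-diabetic cells, with 3 of 20 higher and 6 lower (median -0.12). Without the cells that stood apart 10 were lower in the diabetic and 2 higher in the non-diabetic cells. Arg1, which encodes the arginine-degrading enzyme arginase 1, was at 889 against 2554 CPM (-1.52, interval -1.64 to -1.41) and 815 against 1891 CPM (-1.21), and at -3.08 without the cell that held 78.6% of its diabetic UMIs. The growth factor gene Areg stood at -2.61 and -3.91. Of 15 glycolysis and hypoxia genes, 4 in either library were at least 2-fold lower and 0 higher (medians -0.48 and -0.70), and without the cell that stood apart 9 were lower in the diabetic library (median -1.23). Of acute-phase and antimicrobial genes, Saa3, a serum amyloid gene, was at 3157 against 16459 CPM in the diabetic library (-2.38), with 93.1% of its UMIs in 1 cell, and at -5.88 without the cell with neutrophil genes. In the non-diabetic library it stood at -0.73.

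Of the G2/M list of cell division genes, 7 of 13 measured were at least 2-fold lower in the non-diabetic and 8 of 15 in the diabetic cells, and 0 were higher. Without the cell that stood apart 7 were lower and 2 higher in the diabetic cells. At 5000 UMIs per cell, 23.1% of the non-diabetic (interval 11.1% to 39.3%) and 57.1% of the diabetic Ifit/Mx1-high cells (28.9% to 82.3%) had 2 or more UMIs of the list, against 30.01% and 28.8% of the other cells. Hmgb2, which encodes a chromatin protein found outside division too, made up 74.6% and 78.7% of these cells' UMIs of the list. Without Hmgb2, a step chosen after seeing the data, the shares were 2.56% (1 of 39) and 0% (0 of 14), against 6.04% and 6.56% of the other cells.

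The next comparison set the Ifit/Mx1-high cells against cells that carried Ly6c2 but stayed below the threshold, 246 non-diabetic and 254 diabetic cells with 3 or more Ly6c2 UMIs. The comparison cells were chosen by Ly6c2 and the Ifit/Mx1-high cells were not: 22 of 40 and 10 of 14 of these had fewer than 3 Ly6c2 UMIs. In the macrophage, MHC class II and classical monocyte values, this choice and the interferon genes cannot be told apart. Of all measured genes, 6.65% were at least 2-fold higher and 4.84% lower in the non-diabetic library, and 9.05% and 9.95% in the diabetic library. Of the interferon-induced genes in the 5 lists, 62 of 73 were higher and 0 lower in the non-diabetic cells (median 1.82), and 53 of 68 higher and 1 lower in the diabetic cells (median 2.26; 56 higher, 0 lower and a median of 2.48 without the cell that stood apart). Isg15 was at 1734 against 298 CPM (2.54, interval 2.42 to 2.66) and 829 against 64.5 CPM (3.68, 3.43 to 3.94). Rsad2 was at 557 against 60.1 CPM (3.21) and 483 against 5.42 CPM (6.45), and Ifi213 stood at 2.37 and 3.76. Here 0 of 8 receptor and kinase genes passed 2-fold in either library, with Ifnar1 at 0.13 and 0.52.

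Against the Ly6c2 cells the macrophage genes were higher in the non-diabetic library, 7 of 13 by at least 2-fold and 0 lower (median 1.09), and 4 of 15 were higher and 2 lower in the diabetic library (median 0.60; 5 higher without the cell that stood apart). C1qa was at 655 against 141 CPM (2.22) and 1191 against 556 CPM (1.10). MHC class II genes, 2 of 10 and 6 of 11 of which were at least 2-fold higher (7 of 11 without the diabetic cell that stood apart), did not repeat the lower non-diabetic values seen against all other cells: H2-Aa stood at 1.01 (interval 0.86 to 1.16) and 1.40 (1.29 to 1.501). Cxcl3 stayed lower, at -2.13 and -1.50. Of 10 classical monocyte genes, Ms4a4c alone was at least 2-fold higher, at 1.21 and 1.01, and Plac8 stood at 0.55 and -0.38. In the non-diabetic library 2 of the 10 were at least 2-fold lower (median -0.12). In the diabetic library 3 were (median -0.80; 5 lower and a median of -0.95 without the cell that stood apart).

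Diabetic Ifit/Mx1-high cells were then set against non-diabetic ones. The threshold on 4 interferon genes was the same in both libraries and holds the interferon genes of the chosen cells near each other, so each value is given beside the same ratio in the other filtered cells, a comparison added after seeing the data. Of all genes measured in the Ifit/Mx1-high cells, 5.72% were at least 2-fold higher and 8.78% lower in the diabetic cells (median log2 ratio -0.02). Without the 2 cells that stood apart these shares were 6.51% and 9.76%. In the other cells the shares were 8.5% and 6.58%, with a median of 0.12. Of the interferon-induced genes in the 5 lists, 0 of 70 were at least 2-fold higher and 15 lower in the diabetic Ifit/Mx1-high cells (median -0.47; 11 lower and a median of -0.39 without the 2 cells that stood apart). In the other cells 1 of 76 was higher and 49 lower, with a median of -1.37.

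Diabetic Ifit/Mx1-high cells had 829 CPM of Isg15 and non-diabetic ones 1734 CPM (log2 ratio -1.06, interval -1.27 to -0.87), against -2.58 in the other cells. The cells of the libraries overlapped, from 380 to 1968 CPM and from 75.5 to 6986 CPM. Bst2, which encodes the tetherin that holds virus at the cell surface, was at 178 against 733 CPM (-2.03, -2.48 to -1.63; -1.68 in the other cells). Slfn4 was at 97.3 against 415 CPM (-2.07, -2.70 to -1.54; -3.38), but its transcript has a stretch 96.2% identical to Slfn3. Oasl1 stood at -1.26 (-4.14 in the other cells) and Irf7 at -0.81 (-2.10). Others were at about the same level in both libraries once the cells were chosen: Rsad2 stood at -0.20 (-0.49 to 0.08; -2.79), Usp18 at -0.07 (-0.56 to 0.39; -2.50), Ifi206 at -0.03 (-0.49 to 0.41; -2.52) and Ifi213 at -0.21 (-0.67 to 0.22; -2.27). Cxcl10 stood at 0.21 (0.05 to 0.36) against -3.06 in the other cells, and Ccl12 at -1.0004 (-1.49 to -0.56) against 1.05.

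MHC class II genes were higher in the diabetic Ifit/Mx1-high cells, 6 of 10 by at least 2-fold and 0 lower (median 1.09). In the other cells 0 of 11 were higher and 1 lower (median -0.60). H2-Aa was at 3019 against 751 CPM (2.01, interval 1.85 to 2.17), where the other cells had a ratio of 0.01. The diabetic cells with most H2-Aa had 209, 174, 162 and 143 UMIs, and C1q sums of 135, 99, 120 and 92. Other diabetic cells with C1q sums of 236, 128 and 79 had 14, 1 and 0 H2-Aa UMIs. The C1q sum had a median of 95.5 in the diabetic and 1 in the non-diabetic cells, and its part in the class II values was not tested. H2-Eb1 stood at 1.55 (-0.63 in the other cells), Cd74, the invariant chain gene, at 1.06 (-0.55) and Ciita at 2.74 (1.42 to 4.44; -0.60), on 18 diabetic and 6 non-diabetic UMIs. Classical monocyte genes were lower, 5 of 11 by at least 2-fold with 1 higher (median -0.88; 0 higher and a median of -0.97 without the 2 cells that stood apart). They were lower in the other cells too, with 4 of 11 lower, 1 higher and a median of -0.83. Of all genes measured in the Ifit/Mx1-high cells, 8.78% were lower. Ly6c2 was at 228 against 605 CPM (-1.40, -1.80 to -1.04; -0.83 in the other cells), Chil3 at 413 against 1811 CPM (-2.13; -1.76), and Plac8 stood at -1.17 (-1.51). C1qa stood at 0.86 (2.01 in the other cells). Ifnar1 was at 154 against 70.1 CPM (1.14, 0.53 to 1.75; 0.60 in the other cells). Its list of receptor and receptor kinase genes had 1 of 8 higher, 0 lower and a median of 0.02 without the 2 cells that stood apart. In the other cells 0 of 8 passed 2-fold (median 0.05).

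The genes with the highest and lowest ratios between the libraries, named by rank, were in part those of the cells that stood apart: S100a9, G0s2, Cxcl5, Stfa2l1 and Retnlg on the diabetic side and Ccl17, Ccr7 and Ccl22 on the non-diabetic side. Without those cells Saa3 had a log2 ratio of 1.25, against 4.83 with them and 6.49 in the other cells. Tpm3-rs7 was at 252 against 8.59 CPM (4.77, interval 3.68 to 6.36; 5.08 in the other cells) and Hebp1 at 178 against 7.15 CPM (4.51, 3.32 to 6.32; 4.57), so these ratios were much the same outside the Ifit/Mx1-high cells. On the non-diabetic side Crip1 was at 292 against 1983 CPM (-2.76, -3.09 to -2.45), where the other cells had -0.68. Tppp3 had 2 diabetic and 127 non-diabetic UMIs (-4.44, -7.82 to -2.88; -0.27 in the other cells), and Odc1, the gene of the polyamine pathway's ornithine decarboxylase, 1 and 82 UMIs (-4.55, -10.45 to -2.61; -1.99).

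Since the threshold cuts a range, the interferon genes that did not choose the cells were followed over all sums of the 4 genes. Cells set apart by Cd209a and Klrd1 are not counted here. In the non-diabetic library Isg15 was at 150 CPM in 722 cells with a sum of 0, 389 CPM in 219 cells with 1 to 4, 705 CPM in 48 cells with 5 to 9, 1368 CPM in 24 cells with 10 to 19 and 2350 CPM in 16 cells with 20 or more. It was higher in each class than in the class before. In the diabetic library it was at 23.2 CPM in 1568 cells, 126 CPM in 123 cells, 733 CPM in 13 cells, 826 CPM in 3 cells and 829 CPM in 11 cells, so it differed little from a sum of 5 upward, in classes of under 20 cells. Irf7 ran from 95.6 to 975 CPM in the non-diabetic library and was at 20.8, 125, 473, 525 and 372 CPM in the diabetic one. Rsad2 was at 32.2, 143, 176, 322 and 952 CPM in the non-diabetic and 5.12, 20.99, 318, 131 and 560 CPM in the diabetic library. The classes share their libraries and the sum grows with depth, so these are descriptions with no test.

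**Figure D5:**
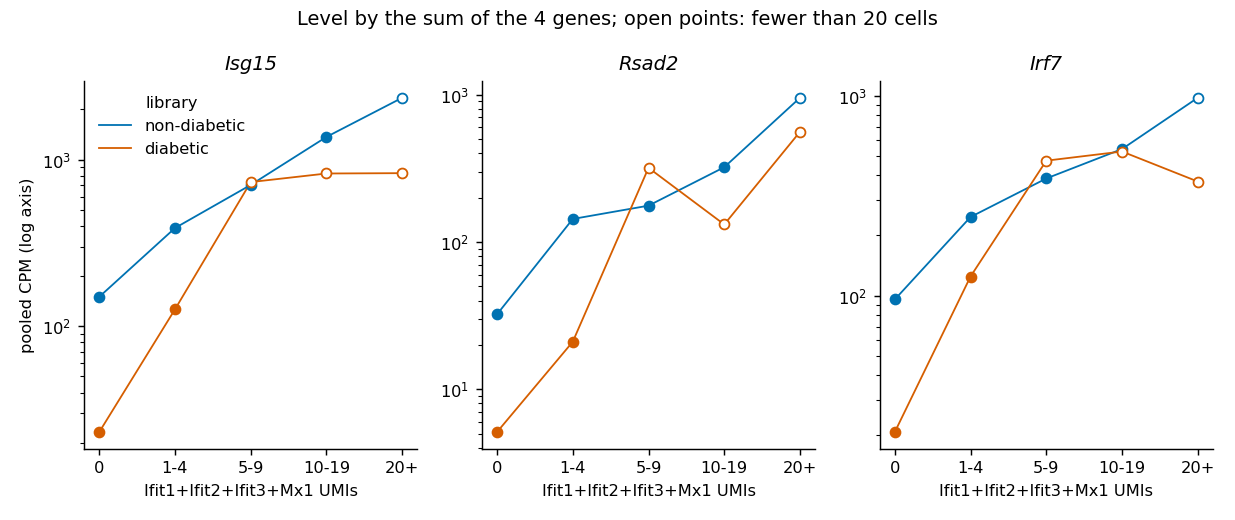
Pooled CPM (log axis) of Isg15, Rsad2 and Irf7 in filtered cells grouped by their summed UMIs of Ifit1, Ifit2, Ifit3 and Mx1, for both libraries, with open points for classes of fewer than 20 cells. Isg15 runs from 150 to 2350 CPM over the 5 classes of the non-diabetic library and from 23.2 to 829 CPM in the diabetic library.

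The Ifit/Mx1-high cells held no UMI of an interferon gene on the list searched. Ifnb1, which encodes interferon beta, had 147 UMIs in 35 of 1123 filtered non-diabetic cells, with 1 to 21 UMIs per cell, and 2 UMIs in 1 diabetic cell. Of the 40 non-diabetic Ifit/Mx1-high cells 0 had Ifnb1. By an approximate rule, 3 divided by the number of cells, this allows a share of up to 7.5%. Of all filtered non-diabetic cells 3.12% had it, so a lower share was not detectable with this number of cells. The 35 cells with Ifnb1 had a sum of the 4 choosing genes of 0 to 9 with a median of 0, and 23 of them had 0. Of all filtered non-diabetic cells 69.6% had a sum of 0, and their median was 0 too. With 0 Ifnb1 UMIs in the Ifit/Mx1-high cells, a sum of 10 or more was possible only in cells set apart by Cd209a and Klrd1. The interferon gamma gene Ifng, the alpha genes Ifna1, Ifna2, Ifna4, Ifna5, Ifna6, Ifna9 and Ifna12 and the lambda genes Ifnl2 and Ifnl3 had 0 UMIs in all filtered cells of both libraries, and Ifnk had 1 and 4, with 0 in Ifit/Mx1-high cells. A count of 0 at this depth does not show that a gene is silent.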

How the data were processed

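The deposited files hold raw UMI counts per gene and cell barcode, made by the authors with Cell Ranger 3.0.2 (version per the file headers) against mm10 (build per the submitters' processing notes), with no annotation release named in the sources used here. The files list 31053 genes, of which 71 share a symbol with another. From them, cells were filtered and chosen with Python 3.11.15 and scanpy 1.11.5 as the opening says. The cells and the 42 gene lists were chosen with earlier results of these data known. UMIs were summed over the cells of a set and scaled to CPM, and ratios were taken on a log2 scale with 0.5 UMI added. Intervals of ratios are conditional binomial intervals and those of shares Clopper-Pearson intervals (scipy 1.17.1), at 95%. With 1 library per group no test was run. Genes with fewer than 20 UMIs over both sets were not counted. Shares of cells with a UMI were taken after thinning to 5000 UMIs per cell. Doublets were looked for with Scrublet and none were removed.

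Genes named are the choosing genes, Ifi213 and Ly6c2, the 12 highest and 12 lowest ratios of a comparison among genes of 100 CPM or more, and list genes of 20 CPM or more in a set compared. Mitochondrial, ribosomal protein, haemoglobin, sex-linked genes and unnamed gene models were left out of the ranks. Coordinates are those of mm10 in GENCODE M21, where 30934 of the file's gene identifiers were found. Transcripts were compared with BLAST 2.17.0, and 18 of 46 genes had another gene at 95% identity or more over 200 bases. Scaling by edgeR 4.0.16 (TMM) and DESeq2 1.42.0 (size factors) in R 4.3.3 was tried as an alternative. The computation was tested on simulated data. Some list genes are not reported here by name.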

Additional observations from a re-analysis of the deposited data

Results flagged for a closer look

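In the non-diabetic library 5 barcodes that did not pass the cell filter also had 10 or more summed UMIs of Ifit1, Ifit2, Ifit3 and Mx1, where the diabetic library had 0 such barcodes; they were left out of every comparison.

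Clec10a, a lectin gene of dendritic cells and macrophages, moved in opposite directions, with a log2 ratio of Ifit/Mx1-high over other cells of -1.49 in the non-diabetic and 2.05 in the diabetic library. The difference between the libraries was not tested, 87.7% of the diabetic UMIs came from 1 cell, and a stretch of the transcript is 96.4% identical to Mgl2.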

How the results depend on the processing

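No paired analysis was possible because each group is 1 library. Under the alternatives 205 of the counts, shares and list medians that answer a comparison stayed as given, within 1.5 times or, for list medians, 0.5 log2 units, and 53 moved. Scaling by TMM or size factors shifted ratios by 0.026 to 0.051 log2 units. Among single genes and minor lists 5055 values stayed, 1062 moved and 86 changed sign. The cause of these changes was not tested.

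The share of Ifit/Mx1-high cells was 7.84% and 1.54% at a sum of 5 or more, 1.42% (non-diabetic) at 20 or more, and 2.49% (non-diabetic) with the threshold set per 10000 UMIs. At a minimum of 50 UMIs, the genes at least 2-fold higher and lower numbered 469 and 671 against other non-diabetic cells (773 and 1110 as given), 321 and 188 against non-diabetic Ly6c2 cells (564 and 410), 416 and 548 against diabetic Ly6c2 cells (774 and 851) and 105 and 195 between the libraries (294 and 451). Without a minimum, 4675 and 6962 genes were higher than in other non-diabetic and diabetic cells (773 and 1619 as given), 1912 higher and 823 lower against non-diabetic Ly6c2 cells, 4033 higher against diabetic ones, and 2081 higher and 1643 lower between the libraries. At 1.5-fold the numbers were 1764 and 1964, 3020 and 2469 (1359 lower as given), 1325 and 1073, 1737 and 1590, and 814 and 1033, in the order non-diabetic and diabetic other cells, non-diabetic and diabetic Ly6c2 cells, and between the libraries. A sum of 5 or more gave 521 lower against other non-diabetic cells and 182 and 523 lower against Ly6c2 cells. A sum of 20 or more gave 1301 higher than other non-diabetic cells and 983 lower than non-diabetic Ly6c2 cells. The threshold per 10000 UMIs gave 1179 and 3231 higher than other cells, 703 lower than non-diabetic Ly6c2 cells, and 1458 higher and 1320 lower than diabetic ones. The interferon-induced genes lower in diabetic Ifit/Mx1-high cells, 15 as given, numbered 32 at 1.5-fold, 8 at a sum of 5 or more, 32 at 20 or more and 9 under 5% mitochondrial UMIs; those higher, 0 as given, numbered 2 without a minimum, 1 at 1.5-fold and 1 at a sum of 5 or more. The G2/M shares of 23.1% and 57.1% were 2.50% and 21.4% at 2000 UMIs per cell, 10.3% and 14.3% with 3 or more UMIs, and 2.56% and 0% without Hmgb2. The non-diabetic Ly6c2 share of 48.7% was 67.5% without thinning.

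Changes of sign fell mostly on genes of the 2 cells that stood apart. With those cells left out, log2 ratios were, against other diabetic cells, G0s2 -3.02, Hdc -0.80, S100a9 -5.78 and neutrophil list median -3.43; against diabetic Ly6c2 cells, -4.49, -1.15, -6.58 and -3.46; against other non-diabetic cells, Ccl17 -3.21 and Ccl22 -4.63; against non-diabetic Ly6c2 cells, Ccl22 and Ccr7 -0.89 and Tnfrsf9 -3.10; between the libraries, Ccl17, Ccl22 and Ccr7 1.49, Retnlg -0.091, Wfdc21 -0.83 and neutrophil list -0.045. With the deepest 5% of cells left out, the same sets gave G0s2 -3.04, Hdc -0.80, S100a9 -5.73 and neutrophil list -3.04; -4.13, -0.89, -5.67 and -3.69; Ccl17 -2.83, Ccl22 -4.19 and Col1a1 1.51; Ccl22 and Ccr7 -0.76 and Tnfrsf9 -2.37; and Ccl17, Ccl22 and Ccr7 1.26, Retnlg -0.32, Wfdc21 -1.06 and neutrophil list -0.28. Under 5% mitochondrial UMIs, ratios against other diabetic cells were G0s2 -2.80, Hdc -0.43, S100a9 -5.55, neutrophil list -2.80, Ccl5 -0.43 and Clec10a -0.079; against diabetic Ly6c2 cells, -4.20, -0.69, -6.29 and -3.31, with Ccl5 -0.55 and Lpl -0.38; between the libraries, Ccl5 -0.76 and Wfdc21 -0.58. With the threshold per 10000 UMIs they were G0s2 -2.58, Hdc -0.16, S100a9 -5.10, neutrophil list -2.71 and Clec10a -0.24 against other diabetic cells; -4.54, -1.32, -6.42 and -3.08 against diabetic Ly6c2 cells; Ccl17 -3.91 and Ccl22 -2.65 against other non-diabetic cells; Tnfrsf9 -3.77 against non-diabetic Ly6c2 cells; and Ccl17, Ccr7 and Tnfrsf9 1.53, Ccnd2 0.79, Lyz1 -1.64, Retnlg -0.057 and Wfdc21 -0.24 between the libraries. At a sum of 20 or more, Ccl17 was -3.43, Ccl22 -3.76 and Lcn2 -0.95 against other non-diabetic cells, H2-Eb1 -0.54, Lpl -3.64 and Tnfrsf9 -3.29 against non-diabetic Ly6c2 cells, and Ccl17, Ccl22 and Ccr7 0.089 and Tnfrsf9 2.41 between the libraries. At a sum of 5 or more, Folr2 was 0.31 against diabetic Ly6c2 cells, Mmp12 -0.10 between the libraries and Col1a1 9.27 against other non-diabetic cells. With 6 or more Ly6c2 UMIs in the compared cells, Ccl5 was 1.33 in the non-diabetic library.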
